A study of Homo sapiens with 8 samples.

Results

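The genes described here belong to 5 families of the ubiquitin system: the F-box proteins, the cullins, the E2 ubiquitin-conjugating enzymes, and the deubiquitinases of the USP and OTU families. They were chosen by symbol, as the rows of the array table whose single platform symbol begins with FBXL, FBXO, FBXW, CUL or USP and a digit, with UBE2 and a letter, or with OTUB or OTUD. Where a gene had several rows the brightest one was used, which concerned 4 members. The rule matched 156 genes, and FBXO21 was left out of the selection, so that 155 members of 14812 named genes remained. They comprise 16 FBXL, 32 FBXO, 10 FBXW, 8 CUL, 27 UBE2, 54 USP and 8 OTUD symbols. Of the 155, 143 are protein-coding in RefSeq, and the others are pseudogenes and antisense or divergent RNAs that carry the symbol of a family gene. USP6NL also enters by its symbol, although it encodes a GTPase-activating protein and no deubiquitinase.

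Ubiquitin is activated by an E1 enzyme, passed to an E2 enzyme and joined to a substrate with the help of an E3 ligase. In the largest class of E3 ligases a cullin is the scaffold: CUL1 holds, through SKP1, an F-box protein that selects the substrate, while CUL4A and CUL4B bind substrate receptors through DDB1. Deubiquitinases remove or trim the ubiquitin chains. Plasma cells make large amounts of secreted protein, and myeloma is treated with proteasome inhibitors and with thalidomide analogues, which redirect the CUL4 receptor cereblon to new substrates.

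The study used 4 established human multiple myeloma lines, KMS11, KMS18, KMS34 and OPM2, which per the labels carry t(4;14), the translocation that brings NSD2 (also called MMSET) under immunoglobulin enhancers. Each line gave 1 control culture and 1 culture with a knockdown of MMSET I, the short product of NSD2, by a short hairpin RNA (shRNA), so that there were 4 control and 4 knockdown samples on 8 arrays. All cultures received lentivirus together with polybrene at 8 µg/mL and were collected 48 h after the infection medium had been exchanged; the series text gives 72 h and names KMS11 alone. What the control virus carried and which hairpin was used are not given in the sources used here, and nothing says that the cultures of a line were independent beyond their labels. RNA was measured on Affymetrix GeneChip Human Gene 2.0 ST arrays, which read each gene with a set of probes. The values are linear fluorescence intensities, and they were compared as log2 values within a gene; since probes differ in brightness, no gene's level is set against another's. These are RNA levels of whole cultures, in which a smaller share of expressing cells and less RNA per cell cannot be told apart.

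Arrays of the 2 groups had like distributions, with medians between 49.3 and 53.55. Over the members, arrays of the same line correlated at 0.992 to 0.993 and arrays of different lines at 0.893 to 0.941. Plasma cell and myeloma markers (11 of 14 with a row) summed to 10653 to 13568 per array, and among them CD38 was at 50.6 and 83.2 in KMS11 against 168 to 416 in the other lines. Of other cell types, 4 of 6 T and NK cell markers had a row and summed to 256 to 344. Of 5 myeloid markers CD14, LYZ and S100A8 lay under the filter limit, while CD68 (88.2 to 119) and CSF1R (66.8 to 86.6) lay above it. The plasma cell markers POU2AF1 (70.7 to 88.4) and CD27 (56.2 to 86.6) were in that range too. These sums hold different genes and are not set against each other. NSD2 was 680 to 814 in control and 549 to 728 in knockdown arrays (log2 difference -0.18, limma adjusted p = 0.472); its row covers the whole gene and cannot single out MMSET I. GLO1, which the series title names as regulated by MMSET I, fell by 0.76 on the log2 scale (adjusted p = 0.00142).

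Genes with a mean log2 intensity below the 25th percentile of the named genes, which corresponds to an intensity of 46.7, were not tested. Of the 155 members 137 passed this filter, all 8 cullins and all 8 OTUD genes among them, along with 14 FBXL, 28 FBXO, 8 FBXW, 24 UBE2 and 47 USP genes. The 18 members under it were FBXL13, FBXL22, FBXO36, FBXO40, FBXO43, FBXO47, FBXW10, FBXW12, UBE2B, UBE2Q2P1, UBE2U, USP17L15, USP26, USP27X-DT, USP29, USP32P1, USP44 and USP50. UBE2B, an E2 that serves RAD18 in the DNA damage response, was nearest to the limit from below. Among the 137, USP17L12 and the pseudogene USP17L9P had identical intensities on all 8 arrays, so the same signal enters each count of tested members for both.

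The first comparison asked whether the knockdown of MMSET I moved these genes across the 4 lines. None of the 137 tested members was called by limma at a Benjamini-Hochberg adjusted p under 0.05, where 0.117% of all 11109 tested genes were. This count is partly set by the choice of members, because FBXO21, the F-box gene left out of the selection, passed the threshold in the same fit (log2 difference -0.44, adjusted p = 0.0239). At an unadjusted p under 0.05 there were 13 members (9.49%) against a background of 8.41% of genes. Of these 9 had a mean below 0 (background 4.15%) and 4 above (background 4.26%). The median log2 difference was -0.0067 over the members and -0.0033 over all tested genes. A mean below 0 was found in 77 members and above 0 in 60, against 5732 and 5377 of all 11109 tested genes. The sign was negative in all 4 lines for 17 members (12.4%, background 8.76%) and positive in all 4 for 11 (8.03%, background 8.29%). The number at an unadjusted p under 0.05 was 7 without KMS34, 9 without OPM2 and 12 without KMS11 or KMS18. The share of all tested genes in those fits is not given.

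The deubiquitinase gene USP40 had the smallest p of the members. Its control and knockdown intensities were 86.1 and 119 in KMS11, 57.4 and 60.5 in KMS18, 68.5 and 99.96 in KMS34, and 54.0 and 68.4 in OPM2. Each knockdown array was above the control array of its own line, by little in KMS18, and the groups overlapped. The means were 66.5 ± 14.5 in control and 86.9 ± 27.3 in knockdown arrays (SD, n = 4), 0.36 apart on the log2 scale (SE 0.079), which missed the threshold (adjusted p = 0.203). Without KMS34 the difference was 0.29 and without KMS18 it was 0.45.

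USP46 and USP12 are closely related deubiquitinases that are both activated by the protein WDR48. USP46 had control and knockdown intensities of 196 and 190 in KMS11, 119 and 96.0 in KMS18, 99.4 and 87.7 in KMS34, and 189 and 136 in OPM2. Its mean log2 difference was -0.25 (SE 0.076, adjusted p = 0.405). USP12 had 65.8 and 60.1 in KMS11, 86.4 and 77.8 in KMS18, 65.2 and 53.5 in KMS34, and 118 and 106 in OPM2, a difference of -0.18 (SE 0.063, adjusted p = 0.467). WDR48 itself had a difference of -0.14 (adjusted p = 0.593). All 3 genes were lower in the knockdown array of every line, as were 8.76% of all tested genes, and none passed the threshold. USP46 and USP12 were named in part for having 1 sign in 4 lines, so their shared sign was set by that choice. The 2 paralogs are similar in sequence, so some of their probes may read both.

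Among the cullins CUL5, the scaffold for SOCS-box receptors, had the smallest knockdown p. It stood at 217 and 208 in KMS11, 268 and 242 in KMS18, 232 and 174 in KMS34, and 329 and 283 in OPM2, control before knockdown. On the log2 scale knockdown and control differed by -0.21 (SE 0.071, adjusted p = 0.453), and -0.14 without KMS34, where the gap was widest. The mean difference was below 0 in 6 of 8 cullins, with a median of -0.063, and in 5732 of all 11109 tested genes. CUL1, CUL4A and CUL5 were lower in all 4 lines (background 8.76%), while CUL7 was higher in all 4 (background 8.29%). None of these passed the test, and for CUL4A the differences in KMS11 and KMS18 were close to 0.

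UBE2T, the E2 of the Fanconi anaemia pathway, stood at 1068 and 846 in KMS11, 835 and 831 in KMS18, 1014 and 964 in KMS34, and 1028 and 806 in OPM2, control before knockdown. Its mean intensity was 986 ± 103 in control and 862 ± 70.3 in knockdown arrays (SD, n = 4), a log2 difference of -0.19 (SE 0.075, adjusted p = 0.543). The wide gaps were those of KMS11 and OPM2, and without OPM2 the difference was -0.14. UBE2S, which extends ubiquitin chains for the anaphase-promoting complex and is described here after its values were seen, had gaps of -0.46 in KMS11 and -0.30 in OPM2 but of 0.07 in KMS18 and -0.11 in KMS34 (adjusted p = 0.568). Beside these values, 19 of 21 cell cycle markers had a mean below 0, where 5732 of all 11109 tested genes did. The median differences of the markers by line were -0.22 (KMS11), -0.10 (OPM2), -0.086 (KMS18) and -0.042 (KMS34). The part of these markers in the E2 values was not tested.

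FBXO10, the F-box protein that directs BCL2 to degradation, had its widest gap in KMS11, at 0.22, and gaps of 0.14 in OPM2, 0.13 in KMS34 and 0.12 in KMS18. The control mean was 105 ± 16.5 and the knockdown mean 117 ± 21.0 (SD, n = 4; adjusted p = 0.565). USP37, which deubiquitinates cyclin A, had a mean difference of -0.16 (adjusted p = 0.562), with gaps from -0.02 in KMS34 to -0.25 in OPM2. OTUD5, a deubiquitinase that restrains interferon production, had -0.14 (adjusted p = 0.593), with gaps from -0.03 in OPM2 to -0.26 in KMS18, and -0.10 without KMS18. The plot of knockdown differences shows these 8 genes, each with its 4 lines on 1 side of 0.

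**Figure D1:**
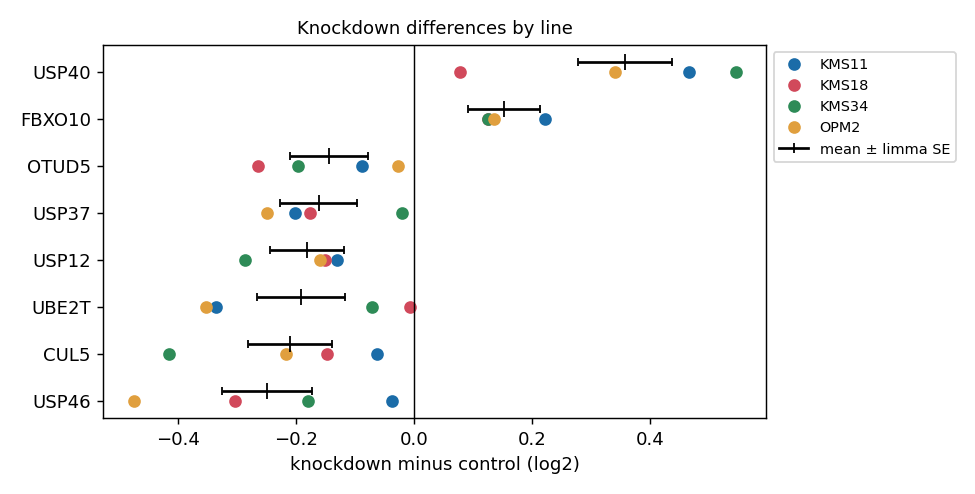
Knockdown minus control on the log2 scale (x axis) for the members with the smallest unadjusted p that had the same sign in 4 lines; coloured points are lines and black bars the mean ± limma standard error. USP40 lies furthest above 0 at a mean of 0.36 and USP46 furthest below at -0.25, and none passed the adjusted threshold.

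Within a line there was 1 array per condition, so these differences have no test. At a gap of at least 1.5-fold there were 0 members in any line, where the background over all tested genes was 0.513% for KMS11, 0.126% for KMS18, 0.252% for KMS34 and 0.189% for OPM2. At 1.3-fold there were 15 member and line pairs, 4 in KMS11 (background 4.28%), 3 in KMS18 (2.13%), 3 in OPM2 (2.52%) and 5 in KMS34 (2.22%). The widest gap was that of UBE2D4, an E2 of the UBE2D group whose members are near-identical, with 81.9 and 120 in KMS18 (0.56 on the log2 scale, and 0.60 after quantile normalization, past 1.5-fold). FBXW4P1, a pseudogene of FBXW4, had gaps of 0.52 in KMS18 and -0.50 in KMS34, in opposite directions.

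The second comparison asked how the members differ between the 4 lines. Here limma's moderated F test of the line terms, in the same fit, called 110 of 137 members (80.3%) at an adjusted p under 0.05, against a background of 75.7% of all tested genes. The test rests on 2 arrays per line, 1 control and 1 knockdown, after removal of the mean knockdown effect. It called all 8 cullins, 23 of 28 FBXO, 21 of 24 UBE2, 38 of 47 USP, 9 of 14 FBXL, 5 of 8 FBXW and 6 of 8 OTUD genes. The size of a difference is given as the range of the 4 line means, the highest minus the lowest. The median range was 0.57 on the log2 scale (1.48-fold) over the members and 0.52 (1.43-fold) over all tested genes. It was 0.80 in the OTUD genes, 0.72 in the cullins, 0.68 in the E2 genes, 0.66 in FBXL, 0.57 in FBXO, 0.49 in FBXW and 0.45 in USP genes. A call with a range of at least 2-fold was reached by 29 members (21.2%), near the background of 18.8%, while 66 reached 1.5-fold (background 43.2%) and 6 reached 3-fold (background 6.77%). Both arrays of the lowest line lay under all 6 others in 76 members (background 55.7%), and both arrays of the highest line above them in 75 (background 57.9%). In each of the 29 members with a 2-fold range at least 1 of these held, as in 98.5% of the 2093 genes with such a range. The count of 29 was 17 with KMS11 left out, 18 with OPM2, 19 with KMS34 and 20 with KMS18 left out. A range over the remaining lines cannot be wider than over all 4, so a lower count was built in. The same holds for each range given below with a line left out.

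**Figure D2:**
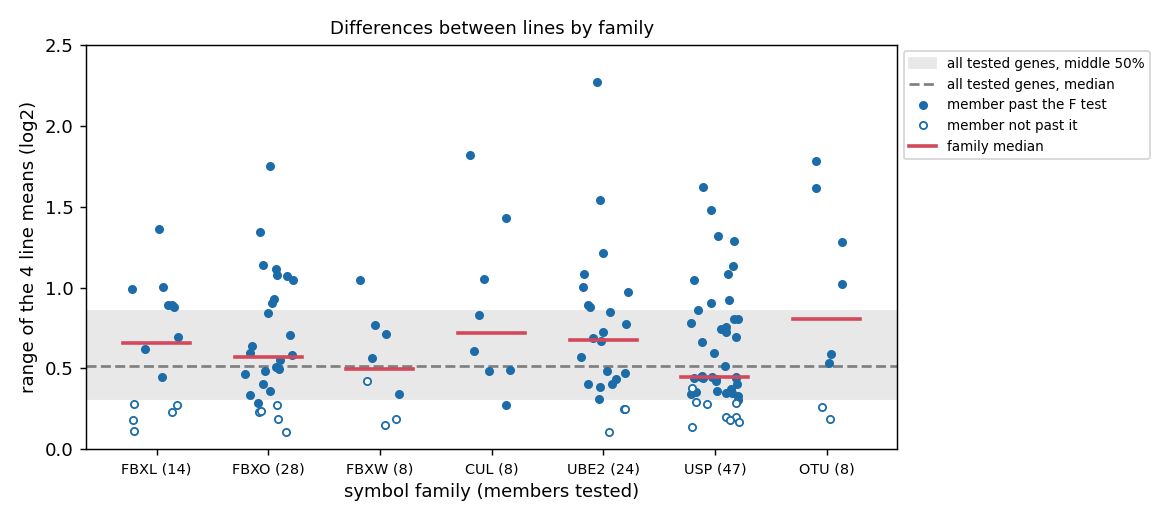
Range of the 4 line means (y axis, log2) for the 137 tested members by family, with the number tested in brackets; filled points passed the F test, red bars are family medians, and the grey band holds the middle 50% of all tested genes. Family medians run from 0.45 in USP to 0.80 in OTUD genes, and UBE2L6 lies highest at 2.27.

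The E2 gene UBE2L6 had the widest range. UBE2L6 loads ISG15, the ubiquitin-like modifier induced by interferon, and also ubiquitin. Its control and knockdown intensities were 141 and 137 in KMS11, 184 and 171 in KMS18, 175 and 176 in KMS34, and 33.8 and 39.9 in OPM2. Both OPM2 arrays lay under the filter limit of 46.7, so that UBE2L6 was at least 2.99-fold lower in OPM2 than in the next line, with the OPM2 mean set to that limit. The measured difference of OPM2 from the mean of the other lines was -2.15 on the log2 scale (SE 0.082, limma adjusted p = 9.61e-10). Without OPM2 the range was 0.35 and the F test still called it (adjusted p = 0.00859). The other genes of the ISG15 cascade did not share this order of lines. UBA7, its E1, was 68.9 and 58.4 in OPM2 and lowest in KMS11 at 57.2 and 58.5. ISG15 was 155 and 156 in OPM2 and lowest in KMS11 at 109 and 102. USP18, the protease that removes ISG15, ranged over 1.24-fold only, with 117 and 121 in OPM2. In RefSeq gene order (GRCh38.p14) the 5 tested protein-coding genes on either side of UBE2L6 on chromosome 11 included 1 that was likewise low in OPM2, LPXN at -2.66, while the other 9 lay between -0.20 and 0.42.

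RefSeq's promoter table (GRCh38.p14) held 113 of the 155 members. The sequences of UBE2L6, CUL4A and OTUD1 are shown because these genes had the widest ranges of line means among the protein-coding members. Each is the 250 bases before the outermost listed start, 5′ to 3′ on the gene's strand, and capitals mark the GC box, GGGCGG on either strand. UBE2L6 lies on the minus strand at chr11:57567936-57568185, CUL4A on the plus strand at chr13:113207943-113208192 and OTUD1 on the plus strand at chr10:23438825-23439074.
UBE2L6: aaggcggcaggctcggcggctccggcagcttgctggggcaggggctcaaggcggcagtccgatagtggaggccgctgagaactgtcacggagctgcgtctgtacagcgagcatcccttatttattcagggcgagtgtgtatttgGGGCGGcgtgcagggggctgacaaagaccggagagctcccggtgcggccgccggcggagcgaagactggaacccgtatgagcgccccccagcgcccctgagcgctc
CUL4A: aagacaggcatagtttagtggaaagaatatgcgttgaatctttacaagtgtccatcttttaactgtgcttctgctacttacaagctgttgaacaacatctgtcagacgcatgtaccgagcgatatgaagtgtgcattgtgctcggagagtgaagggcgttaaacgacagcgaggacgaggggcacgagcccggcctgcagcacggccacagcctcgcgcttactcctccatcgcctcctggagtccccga
OTUD1: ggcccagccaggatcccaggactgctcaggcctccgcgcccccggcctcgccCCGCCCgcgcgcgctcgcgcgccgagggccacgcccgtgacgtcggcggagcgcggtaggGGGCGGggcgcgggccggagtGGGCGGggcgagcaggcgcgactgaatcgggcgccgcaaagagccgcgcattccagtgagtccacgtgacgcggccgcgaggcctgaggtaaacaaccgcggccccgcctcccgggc
OTUD1 held 3 GC boxes in this window, UBE2L6 1 and CUL4A 0, and their GC contents were 78.8%, 67.2% and 52.4%. Over the 113 members 79 (69.9%) had a GC box, whereas 42.2% of all 27305 promoters did, noncoding genes included. CCAAT was found in 28 members (24.8%) against 33% of all promoters. The core of the interferon-stimulated response element, searched as GAAA followed after any 2 bases by GAAA on both strands, was found in 0 of 113 members, UBE2L6 among them, and in 3.07% of all promoters. A match or its absence describes the letters of this window alone, and CUL4A and UBE2L6 have further listed starts.

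CUL4A and CUL4B are paralogous scaffolds that bind the same adaptor DDB1, and their highest and lowest lines differed. CUL4A stood at 381 and 381 in KMS11, 352 and 352 in KMS18, 129 and 98.8 in KMS34, and 427 and 372 in OPM2. Both KMS34 arrays were far under the 6 others, 3.11-fold below the next line, and the difference of KMS34 from the other lines was -1.74 (SE 0.088, adjusted p = 1.56e-08). Without KMS34 the range was 0.18 and the F test no longer called CUL4A (adjusted p = 0.260). CUL4B, in contrast, was 318 and 304 in KMS34, between the other lines. It was highest in KMS11 at 469 and 473, and 245 and 210 in KMS18 and 272 and 226 in OPM2, a difference of KMS11 from the others of 0.86 (SE 0.079, adjusted p = 2.25e-06). Without KMS11 the range of CUL4B was 0.46. Around CUL4A on chromosome 13 all 10 neighbours tested were lower in KMS34 than in the other lines, by -0.52 to -0.004 with a median of -0.22, and 6 passed at an adjusted p under 0.05. These gaps were smaller than that of CUL4A itself. The calls had no fold limit, and the share of all tested genes called in that way is not given. Cereblon, CRBN, a receptor on these scaffolds that is named here after its values were seen, was 131 and 155 in OPM2 against 226 to 281 in the other lines (F test adjusted p = 3.96e-06).

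CUL1, the scaffold of the F-box proteins, was lowest in KMS18 at 986 and 911, and stood at 2007 and 1840 in KMS11, 1708 and 1667 in KMS34, and 2643 and 2460 in OPM2. The 4 lines did not overlap. KMS18 was 1.78-fold below the next line and differed from the mean of the others by -1.09 (SE 0.070, adjusted p = 1.10e-07), and OPM2 was 0.81 above the mean of the others. CUL2, the scaffold for the VHL receptor, was also lowest in KMS18, at 416 and 395 against 542 to 738 elsewhere (adjusted p = 1.34e-05 for KMS18). Without KMS18 the ranges fell from 1.43 to 0.60 for CUL1 and from 0.83 to 0.39 for CUL2, and both were still called.

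The remaining cullins varied less. CUL5 was highest in OPM2 at 329 and 283, with a range of 0.61 (0.34 without OPM2). CUL3, which binds BTB-domain receptors, and CUL7, which partners with FBXW8, were highest in KMS11 with ranges of 0.49 and 0.48, and neither was called without KMS11 (adjusted p = 0.0765 and 0.138). CUL9 had the smallest range of the cullins, 0.27, with arrays from 104 to 138. Its call (adjusted p = 0.0399) was lost without KMS11 (0.119), without OPM2 (0.0808) and after quantile normalization (0.0688). Over the 8 cullins KMS18 was the lowest line for 5 (background 25.5% of all tested genes) and KMS11 the highest for 5 (background 27.8%).

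**Figure D3:**
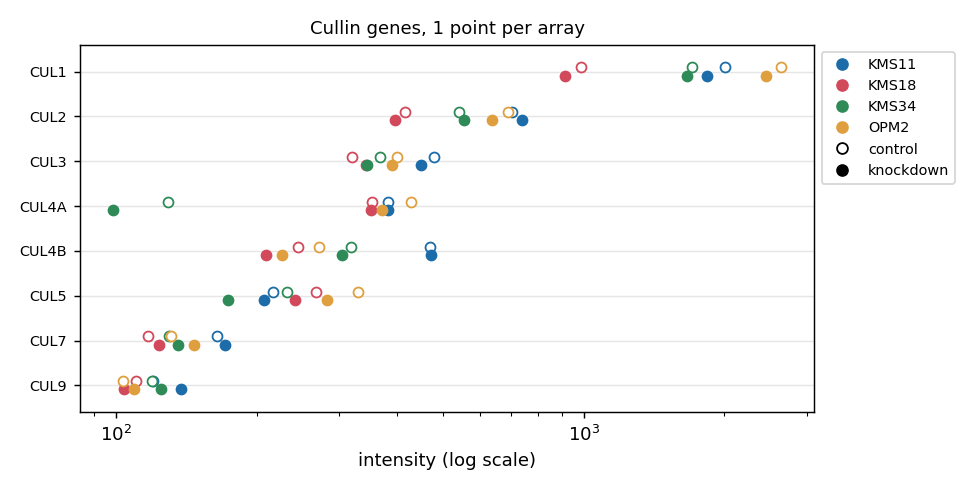
Intensity (x axis, log scale) of the 8 cullin genes on each array; colours are lines, open points control and filled points knockdown arrays. CUL4A in KMS34 (129 and 98.8) and CUL1 in KMS18 (986 and 911) lie under all other arrays of the same gene, while levels are not comparable between genes.

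Among the F-box genes FBXO16 varied most. It was high in KMS11 at 156 and 174 and low in KMS18 at 47.8 and 50.2, with 61.8 and 64.1 in KMS34 and 61.8 and 61.4 in OPM2. KMS11 was 2.62-fold above the next line and 1.52 above the mean of the others on the log2 scale (SE 0.072, adjusted p = 7.39e-09), and without KMS11 the range fell from 1.75 to 0.36. Next to FBXO16 on chromosome 8, FZD3 was 1.82 higher in KMS11, and 8 of 10 neighbours were higher there, 7 of them called. These calls too had no fold limit, and no share over all genes is given for them. FBXO8, whose protein joins an F-box to a Sec7 domain, was 414 and 427 in KMS11 and between 155 and 196 on the 6 other arrays. It was 2.27-fold above the next line, and without KMS11 it was no longer called (range 0.16, adjusted p = 0.351).

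FBXO30 was also highest in KMS11, at 277 and 279, and lowest in KMS18, at 121 and 132. FBXO28, a receptor reported to act on MYC, was lowest in KMS18 at 181 and 209, with 289 and 285 in KMS34, while KMS11 (396 and 447) and OPM2 (382 and 454) overlapped at the top. Without KMS18 the ranges fell from 1.14 to 0.63 for FBXO30 and from 1.12 to 0.55 for FBXO28, both still called, and without KMS11 that of FBXO30 was 0.71. FBXL20 ran from 477 and 431 in KMS11 through 275 and 279 in KMS18 and 260 and 255 in KMS34 to 169 and 185 in OPM2. Its range of 1.36 was the widest of the FBXL genes, 0.65 without KMS11 and 0.81 without OPM2.

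FBXL12, which has been linked to the turnover of Ku80 and p57, was 503 and 552 in KMS11 and 262 to 327 elsewhere. FBXL6 was 268 and 216 in KMS18 and 118 to 153 elsewhere. FBXW8, the partner of CUL7, was 565 and 549 in KMS34 and 246 to 333 elsewhere. In each of these 3 genes 1 line stood apart and the other lines lay close together, and the call was lost without that line: FBXL12 had an adjusted p of 0.0706 without KMS11, FBXL6 of 0.0897 without KMS18 and FBXW8 of 0.224 without KMS34. FBXL19-AS1, an antisense RNA whose signal may include that of the overlapping gene, was highest in KMS34 and was also lost without it (adjusted p = 0.443).

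Of the other FBXW genes, FBXW2 was highest in KMS11 at 654 and 728 and lowest in OPM2 at 383 and 429, a range of 0.77 that was 0.28 without KMS11. FBXW5, a substrate receptor found with both CUL1 and CUL4, was 661 and 612 in KMS11 and 652 and 619 in KMS18, which overlapped, and 441 and 427 in KMS34 and 392 and 385 in OPM2. FBXW11, one of the receptors for phosphorylated IkB and beta-catenin, ranged over 1.48-fold, from 111 and 114 in OPM2 to 180 and 154 in KMS34. Its range was 0.37 without OPM2. Over the 50 tested F-box genes OPM2 was the lowest line for 23 (background 23.8% of all tested genes) and KMS11 the highest for 24 (background 27.8%). After quantile normalization KMS11 was highest for 28.47% of all tested members against 24.89% of all genes.

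UBE2QL1, an E2 related to the UBE2Q enzymes, was lowest in KMS34 at 244 and 218, with 654 and 647 in KMS11, 615 and 730 in KMS18, and 434 and 461 in OPM2. KMS34 was 1.94-fold below the next line and -1.33 from the mean of the others (SE 0.085, adjusted p = 1.20e-07), with a range of 0.58 without it. UBE2Z, the E2 that works with the E1 UBA6, was 612 and 655 in KMS11, 421 and 380 in KMS18, 406 and 391 in KMS34, and 243 and 306 in OPM2. KMS11 and OPM2 stood apart at either end. UBA6 was likewise highest in KMS11, at 707 and 746 against 321 to 444 on the other arrays. The range of UBE2Z was 0.55 without KMS11 and 0.67 without OPM2, and that of UBA6 was 0.46 without KMS11. UBE2MP1, a pseudogene of the NEDD8 enzyme gene UBE2M whose row may read UBE2M transcripts, was lowest in KMS18 at 367 and 308, and its range of 1.08 was 0.65 without that line.

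The deubiquitinase USP5, which takes apart free ubiquitin chains, was 278 and 252 in KMS18. It was 717 and 760 in KMS11, 704 and 703 in KMS34, and 603 and 599 in OPM2. KMS18 was thus 2.27-fold below the next line and -1.36 from the mean of the others (SE 0.075, adjusted p = 2.68e-08), and without it the range was 0.30. The adjacent gene on chromosome 12, CDCA3, had nearly the same difference in KMS18, -1.41, while the other 9 neighbours lay between -0.51 and 0.27. USP53 was 371 and 369 in KMS11, 286 and 292 in OPM2, 169 and 177 in KMS18, and 149 and 148 in KMS34, so that the lines did not overlap and control and knockdown values were nearly equal. USP6NL, the GTPase-activating protein, was 105 and 117 in KMS18 and 209 to 287 elsewhere, with a range of 1.29 that was 0.34 without KMS18. USP30-AS1, an antisense RNA that overlaps USP30, was 82.1 and 84.6 in OPM2 and 208 to 265 elsewhere, and was not called without OPM2 (adjusted p = 0.111).

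OTUD1 was the most variable deubiquitinase of its family, with 237 and 225 in KMS34, 123 and 125 in KMS11, 72.2 and 67.3 in KMS18, and 69.6 and 65.1 in OPM2. KMS34 was 1.86-fold above KMS11 and 1.47 above the mean of the others (SE 0.071, adjusted p = 1.09e-08), while KMS18 and OPM2 overlapped, and the range of 1.78 was 0.88 without KMS34. None of its 10 neighbours on chromosome 10 had a difference of that size, the highest being SPAG6 at 0.69. OTUD6B was lowest in OPM2 at 113 and 119, with 219 and 218 in KMS11, 321 and 306 in KMS34, and 369 and 340 in KMS18. The difference of OPM2 from the other lines was -1.32 (SE 0.073, adjusted p = 2.54e-08), and the range fell from 1.61 to 0.70 without OPM2.

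Around OTUD6B on chromosome 8, 9 of 10 neighbours were lower in OPM2 and all 9 were called. PIP4P2 had a difference of -1.80, C8orf88 of -1.66 and NBN, a subunit of the MRN complex that senses DNA breaks, of -1.57, each lower than OTUD6B itself, while NECAB1 was higher by 0.20. Around UBE2QL1 and CUL1 no neighbour differed as much as the member, the lowest being -0.26 and -0.58. Of the 10 neighbours of CUL1, 6 were lower in KMS18 and 4 higher, with a median of -0.31, and 6 lower and 1 higher were called. For UBE2QL1 in KMS34 the median was -0.012, and 1 lower neighbour was called. The look at neighbours, for the 8 most variable protein-coding members, was chosen after their values were seen. Neighbours were called without a fold limit, and the share of all tested genes called in that way is not given. Differences between lines are common, as 75.7% of all tested genes passed the F test. Copy number was not measured, and its part in these values was not tested. OTUD5 ran from 1243 and 1084 in KMS34 and 892 and 839 in KMS11 to 637 and 530 in KMS18 and 482 and 473 in OPM2, with no overlap of lines. OTUD7B, a deubiquitinase that acts in NF-kB signalling, was lowest in KMS34 at 118 and 121, where the other arrays were 164 to 249, and its range of 1.02 was 0.52 without KMS34.

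**Figure D4:**
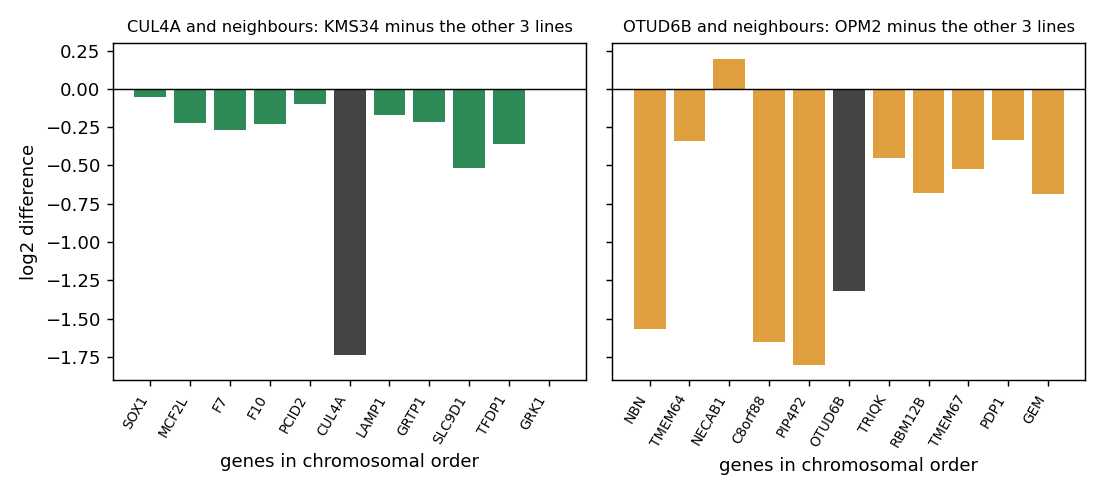
Log2 difference of KMS34 (left, around CUL4A) and of OPM2 (right, around OTUD6B) from the mean of the other 3 lines for the member (dark bar) and the 5 tested protein-coding genes on either side in chromosomal order. CUL4A at -1.74 is far under its neighbours, which reach -0.52, whereas NBN, C8orf88 and PIP4P2 lie below OTUD6B at -1.32.

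Other members were nearly even across the lines. The smallest ranges of each family were those of FBXL8 (0.11, arrays from 150 to 175), FBXO15 (0.11, 47.0 to 51.8), FBXW10B (0.15), UBE2R2 (0.11, 532 to 634), USP35 (0.14, 88.0 to 102) and OTUD6A (0.19), with CUL9 given above. UBE2R2, an E2 partner of cullin ligases, passed neither test (F test adjusted p = 0.772). FBXO15 and OTUD6A lay close to the filter limit, where little change can be seen, and FBXW10B has near-identical copies.

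**Figure D5:**
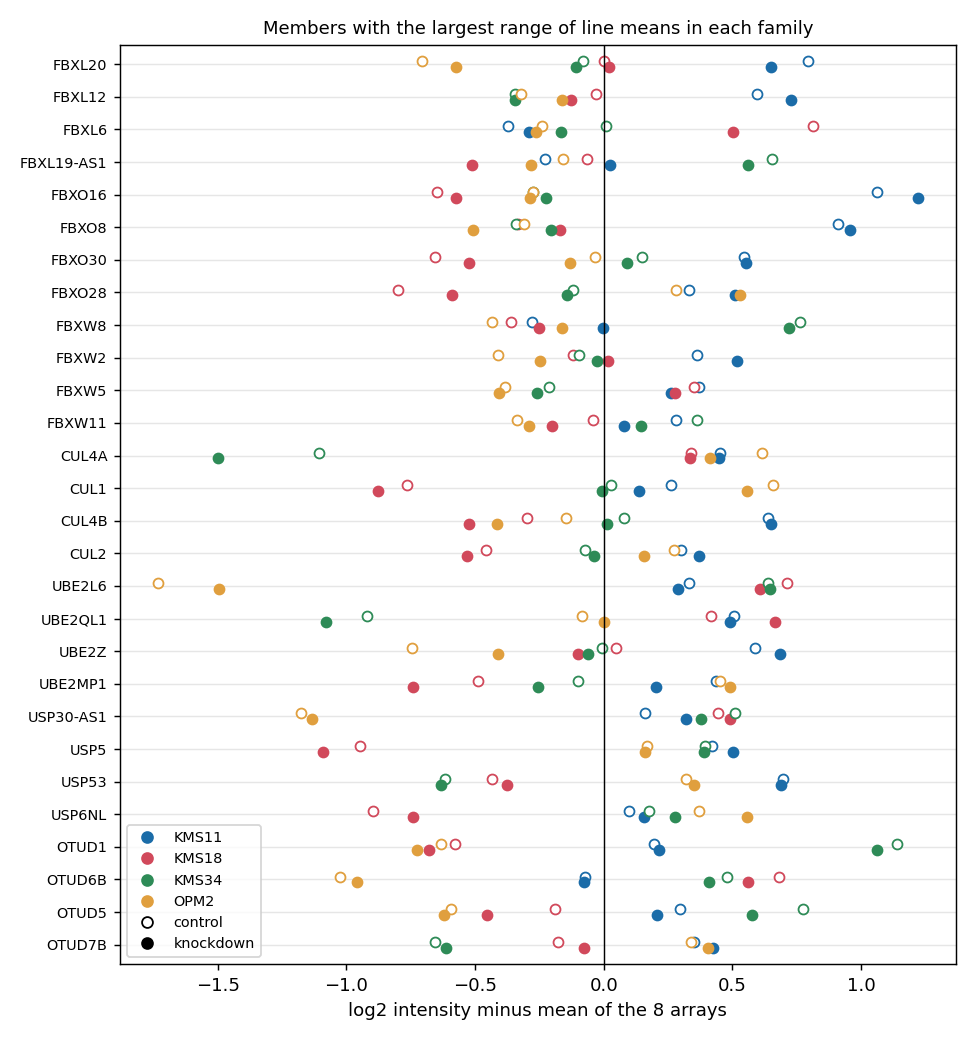
Log2 intensity minus the mean of the 8 arrays (x axis) for the 4 members of each family with the widest range among those past the F test; colours are lines, open points control and filled points knockdown arrays. Open and filled points of a line lie near each other, and single lines stand apart, such as OPM2 in UBE2L6 and KMS34 in CUL4A.

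The lines differed in how often they held the extreme value. KMS11 had the highest line mean for 55 of 137 members (40.1%) against a background of 27.8% of all tested genes, and the lowest for 20 (14.6%) against 29.3%. The median difference of KMS11 from the mean of the other lines was 0.18 over the members and -0.0072 over all tested genes. Tested against the mean of the others, 21 members were higher in KMS11 by at least 1.5-fold (background 11.3%) and 0 lower (background 3.37%). This excess depended on the scaling. After quantile normalization KMS11 was highest for 28.47% of members against 24.89% of all genes. By at least 1.5-fold, 10 of 137 members were then higher (background 9.01%) and 1 lower (background 4.3%). The median was 0.12 over the members and -0.02 over all tested genes. With each array centred on its median the share highest in KMS11 was 39.42% against 27.58% of all genes. In control arrays alone it was 37.96% against 27.32% of all genes, and in knockdown arrays alone 43.07% against 28.8%.

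KMS18 had the lowest line mean for 45 members (background 25.5%), and the highest for 24 (23.8%), with 16 lower by at least 1.5-fold (background 9.9%) and 5 higher (3.67%). After quantile normalization 13 were lower in KMS18 (background 8.42%) and 5 higher (4.78%). OPM2 was lowest for 44 (background 23.8%) and highest for 23 (25.4%), with 11 lower (9.48%) and 7 higher (4.75%). After quantile normalization 9 were lower in OPM2 (8.72%) and 9 higher (5.98%). KMS34 was lowest for 28 (background 21.4%) and highest for 35 (23.1%), and had 15 members higher (8.17%) and 5 lower (4.34%). After quantile normalization 10 were higher in KMS34 (7.18%) and 8 lower (4.72%). Control and knockdown arrays named the same lowest line for 95 members, 69.3% against 66.3% of all tested genes, and the same highest line for 89 (background 68.4%).

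The same comparisons were made for genes that work with the members, from lists of E1 enzymes, modifiers, cullin adaptors, neddylation factors and other F-box, E2 and deubiquitinase genes. Of 155 such genes 114 had a row and 109 were tested. For the knockdown 0 were called and 13 had an unadjusted p under 0.05 (background 8.41%), with a median difference of 0.0074. Between lines 99 were called (background 75.7%), and 22 with a range of at least 2-fold (background 18.8%). The deubiquitinase gene UCHL1 had the widest range of them, with 1099 and 1129 in KMS11, 711 and 724 in KMS18, 866 and 873 in KMS34, and 230 and 211 in OPM2, a range of 5.06-fold. Without OPM2 its range fell from 2.34 to 0.64 on the log2 scale.

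COPS8, a subunit of the COP9 signalosome that removes NEDD8 from cullins, was lowest in KMS18 at 105 and 105, with 204 to 317 on the other arrays, as were COPS7A at 215 and 184 and the cullin adaptor gene ANKRD9 at 88.3 and 98.9, the latter overlapping KMS34. In the list of neddylation and cullin exchange factors KMS18 was the lowest line for 9 of 12 genes (background 25.5%). RNF7, the RING protein that partners with CUL5, was highest in KMS34 at 291 and 295, with 189 and 196 in KMS11, 99.0 and 117 in KMS18, and 118 and 134 in OPM2. LMO7 was 48.0 and 45.9 in KMS18 and 90.4 to 126.5 elsewhere, and TSPAN17, highest in KMS18 and OPM2, had a knockdown difference of 0.19 (adjusted p = 0.456).

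The ubiquitin gene UBB was lowest in OPM2 at 97.9 and 74.0 and highest in KMS11 at 205 and 188, and UFM1 was lowest in KMS11 at 112 and 132. Of the partners of deubiquitinases 7 of 9 were lowest in OPM2 (background 23.8%). Among them WDR48 was 211 and 196 in OPM2 against 344 to 411 elsewhere, and ENY2, of the module that holds USP22, was 77.7 and 72.6 against 126 to 163. Neither was called without OPM2 (adjusted p = 0.996 and 0.350). UBA3, the E1 subunit for NEDD8, was likewise low in OPM2 at 453 and 441 and not called without it (0.197), and COPS7A was not called without KMS18 (0.137). PAN2, a deadenylase subunit with a USP-like fold, was 555 and 557 in KMS11 and 528 and 473 in KMS34, against 209 to 231 in KMS18 and OPM2. The E2-like gene UFC1 was highest in OPM2, at 1053 and 1132. UEVLD had its highest line mean there too, at 216 and 234, but overlapped KMS11 at 198 and 237.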

How the data were processed

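The authors deposited 1 linear intensity per array and transcript cluster, and per the series text they analysed the arrays in GeneSpring; background correction, normalization and summarization are not given in the sources used here. Nearly equal quartiles on the 8 arrays show a common scaling, which would hide a shift of all genes. The platform annotation gave 1 symbol for 15835 of 44629 rows and none for 28794. For 14812 genes the brightest row was kept, log2 of the deposited intensity was taken, and 11109 genes at or above the 25th percentile of mean log2 (5.54) entered a linear model (R 4.3.3, limma 3.58.1, functions lmFit and eBayes). The fit had cell line as a block and Benjamini-Hochberg adjustment over all tested genes. The number of arrays limits the precision: the knockdown has 4 replicates, 1 per line. Its p-values rest on how the knockdown minus control difference varies between these lines, with each gene's variance moderated by eBayes over all tested genes. The spread of the line levels themselves is taken out by the block.

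Lines pair the arrays, as the labels name them; deviations from the group means correlated at 0.925 to 0.932 within a line and at -0.135 at most between lines. Members, lists and tests were chosen with earlier results of these data known. Named were, per family, up to 3 members per direction with the smallest unadjusted knockdown p and 1 sign in 4 lines, the 4 widest and the narrowest range, all cullins, up to 2 genes per pathway list by F test p, NSD2 and GLO1. Alternatives were quantile normalization, median centring, other filters, a gene's rows averaged, each line left out, no block, eBayes with trend and robust, and other fold limits. Chosen after seeing the data were the protein-coding members alone and the share of members highest in KMS11, with its control and knockdown arrays apart. The fits were tested on simulated data. The array table names no genome build, so the only coordinates given are those of RefSeq's promoter table (GRCh38.p14), of whose 250 bases before the outermost start motifs were counted. Genes that share sequence with paralogs or pseudogenes, or overlap an antisense gene, are uncertain.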

Additional observations from a re-analysis of the deposited data

Results flagged for a closer look

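In 96 sets of 4 values from 1 group, the highest or lowest value was checked for lying far from the other 3 (Dixon's test at 95%), and 9 did. Among sets not picked for their values chance gives about 1 in 20, but these genes were named for wide line ranges or small knockdown p-values, so that rate does not apply to them and the 9 are a description. Of the 8 knockdown differences 1 was such a value, FBXO10 in KMS11, at 0.22 against 0.12 to 0.14 in the other lines. Among the control arrays these were FBXO8 in KMS11 at 414, FBXW8 in KMS34 at 565, CUL4A in KMS34 at 129.5 and UBE2L6 in OPM2 at 33.8. Among the knockdown arrays they were FBXL6 in KMS18 at 215.8, CUL4A in KMS34 at 98.8, UBE2L6 in OPM2 at 39.9 and USP30-AS1 in OPM2 at 84.6. CUL4A and UBE2L6 thus stood apart in both groups, in the same line each time.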

How the results depend on the processing

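The count of 0 knockdown calls among the members, and of 0 among the other pathway genes, was the same under every alternative run. Few genes of any kind were called in some of these runs, so 0 was the likely count there. Over all tested genes the calls were 13 in the main fit and 4, 1, 2 and 1 without KMS11, KMS18, KMS34 and OPM2. They were 4 with no filter, 0 without the replicate block and at most 29, with eBayes trend and robust. Without the replicate block on cell line 0 members had an unadjusted p under 0.05 instead of 13, GLO1 was no longer called (adjusted p = 1, log2 difference -0.76), and the F test between lines does not exist in that fit. Leaving out a line gave 7 to 12 members at an unadjusted p under 0.05, 95 to 100 members past the F test instead of 110, and 17 to 20 at 2-fold instead of 29. Over all tested genes the share past the F test fell likewise, from 75.7% to between 64.5% and 68.7%. Shares over all tested genes at the unadjusted p and at 2-fold are not given for these fits. A range over fewer lines cannot be wider, so a lower 2-fold count was built in. At 1.5-fold 66 members and at 3-fold 6 members passed the range limit. Within lines, quantile normalization gave 1 gap of at least 1.5-fold instead of 0 (UBE2D4 in KMS18, 0.60 on the log2 scale) and a limit of 1.3-fold gave 15. The share of members highest in KMS11 was 28.47% after quantile normalization instead of 40.15%; the cause was not tested. Of 535 recomputed ranges of named genes 17 lost the F test call, 15 of them where 1 line was left out. The other 2 were for CUL9, under quantile normalization and with eBayes trend and robust (F test adjusted p = 0.0534). A range has no sign, so no reversal could be seen. Signals near the filter limit, as for UBE2L6 in OPM2, bound the size of a difference. With 1 array per line and condition, differences within a line have no test.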
